A study of Homo sapiens with 6 samples.

Results

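The actin assembly machinery was examined as a set of 54 genes that encode the ARP2/3 complex, the WAVE complex and N-WASP, formins and SPIRE1, capping protein and twinfilins, cofilins with their kinases and phosphatase, profilins and thymosins, and proteins of the gelsolin, ENA/VASP, coronin and cortactin groups. The genes were listed by name, with earlier results of these data known. Each of the 54 matched exactly 1 of the 58825 genes of the count table through its Ensembl ID in GENCODE version 44. RNA came from HGC-27, a human gastric cancer cell line, in 3 libraries of cells that overexpress GC0643 and 3 libraries of cells that carry the vector control. GC0643 is a gene that the study predicted on sequence missing from the reference genome, and the comparison asks which transcripts differ when it is expressed. Cells of both groups were grown in RPMI-1640 with fetal bovine serum. The study made its stable GC0643 lines by retroviral infection with puromycin selection, and whether these were clones or pools is not given in the sources used here. The labels do not say whether the replicates were separate cultures, so p-values measure only the spread between these libraries, which may be technical. GC0643 itself was not analysed here, and the labels were therefore not checked by it.

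Actin filaments grow when monomers join their barbed ends, and a cell decides where they grow by placing nucleators there. The ARP2/3 complex starts a branch on an existing filament after WAVE or N-WASP has activated it, whereas formins start and lengthen unbranched filaments. Profilin and thymosins hold the monomer pool, capping protein stops growth at the barbed end, and cofilins with gelsolins sever filaments so that monomers return. In migrating epithelial and cancer cells these parts together drive the lamellipodium and filopodia at the front of the cell.

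The libraries held 20376722 to 21629573 counts with GC0643 overexpression and 20489033 to 24069166 with vector control. Values are given as CPM, the counts of a gene scaled to the same total in every library, and 19528 genes passed the filter on low counts. The labelled cell type was checked against marker genes. Of 10 markers of gastric epithelium 9 lay under 1 CPM in every library and 5 were at 0 in every library, and EPCAM and CDH1 did not exceed 0.394 CPM. MUC1 was the gastric marker above that, at 9.32 to 9.89 CPM with GC0643 overexpression and 9.56 to 13.9 CPM with vector control. Of 10 general epithelial markers 6 lay under 1 CPM in every library, KRT8, CLDN4, CLDN7 and ESRP1 were the others, and the list summed to 18.9 to 21.3 CPM and 19.6 to 27.8 CPM. The 6 mesenchymal markers summed to 3340 to 3620 CPM with GC0643 overexpression and 3290 to 3510 CPM with vector control. VIM stood at 3090 to 3370 CPM and 3060 to 3280 CPM of this, and CDH2 lay under 1 CPM in every library. The 8 fibroblast-list genes summed to 4340 to 5120 CPM and 4300 to 4950 CPM. Summed markers of endothelium reached 1.03 and 0.998 CPM, and those of leukocytes 5.18 and 5.99 CPM. The 5 erythroid markers differed without overlap, at 15.5 to 21.3 CPM and 26.9 to 32.9 CPM. The part of these genes in the results below was not tested. In a measure of GC content, vector control replicate 2 stood apart from its group. Genes with a transcript GC content of 42.6% or less, relative to those with 57.2% or more, deviated by 0.357, 0.126 and 0.326 (log2) from the mean of the 6 libraries in the GC0643 libraries, in the order of their replicates. For the vector control the same measure was −0.353, 0.118 and −0.583, so that its replicate 2 lay next to the GC0643 libraries. The first principal component, the axis of largest spread between libraries, held 43.1% of the variance over the genes tested. On it the GC0643 libraries lay at −10.95, −16.2 and −29.0 and the vector controls at 18.3, −15.8 and 53.7. There vector control replicate 3 lay farthest out, and replicate 2 again lay among the GC0643 libraries.

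Among the 54 genes, 52 passed the filter. CYFIP2, a WAVE complex subunit, had 5, 3 and 0 counts with GC0643 overexpression and 0, 3 and 6 counts with vector control. EVL, a filament elongation factor of the ENA/VASP family, had 10, 13 and 6 counts against 5, 2 and 16. Together the 54 genes took 0.578%, 0.588% and 0.587% of all counts with GC0643 overexpression and 0.577%, 0.59% and 0.551% with vector control, and these ranges overlap.

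To compare levels between genes, CPM were divided by the kilobases of merged exons. TMSB10, a thymosin that binds actin monomers, had the highest level of all members, at 1110 ± 47.7 (SD, n = 3) with GC0643 overexpression and 1120 ± 61.6 (SD, n = 3) with vector control. PFN1, the main profilin, followed at 328 ± 37.7 (SD, n = 3) with GC0643 overexpression and 373 ± 27.0 (SD, n = 3) with vector control. CFL1, the common cofilin, came next at 130 ± 10.3 (SD, n = 3) with GC0643 overexpression and 149 ± 9.13 (SD, n = 3) with vector control. Per merged exon length these 3 levels lay further apart than their spread. Per kilobase of the canonical transcript CFL1 had 614 ± 48.5 and PFN1 650 ± 74.7 with GC0643 overexpression, against 701 ± 43.0 and 740 ± 53.6 with vector control (SD, n = 3 each), and these lay within each other's spread. BRK1, the smallest WAVE subunit, had 101 ± 5.94 (SD, n = 3) with GC0643 overexpression and 94.6 ± 8.28 (SD, n = 3) with vector control. In the other complexes the highest levels per merged exon length belonged to ACTR2 at 68.3, DIAPH1 at 35.4, CORO1B at 26.4 and TWF1 at 25.7 with GC0643 overexpression. CORO1B and TWF1 lay within each other's spread there, at 26.4 ± 1.42 and 25.7 ± 1.34 (SD, n = 3 each). In the vector control DIAPH1 and CORO1B did so, at 36.6 ± 4.17 and 32.4 ± 3.94, and TWF1 lay lower at 18.3 ± 4.87 (SD, n = 3 each). There ARPC1A at 55.5 ± 3.9 and ARPC1B at 55.2 ± 3.06 had higher means than ACTR2 at 51.4 ± 14.3 (SD, n = 3 each). TWF2 at 18.8 ± 4.44 (SD, n = 3) had a higher mean than TWF1, and both of these differences lay within the spread. Per canonical transcript length ARPC1B at 171, CTTN at 43.7 and CAPZB at 49.1 took the place of ACTR2, CORO1B and TWF1 at 72.9, 31.9 and 33.5 with GC0643 overexpression. Per merged exon length DAAM2 and AVIL were the lowest of the tested members, at 0.055 and 0.292 with GC0643 overexpression and 0.0412 and 0.18 with vector control.

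**Figure D1:**
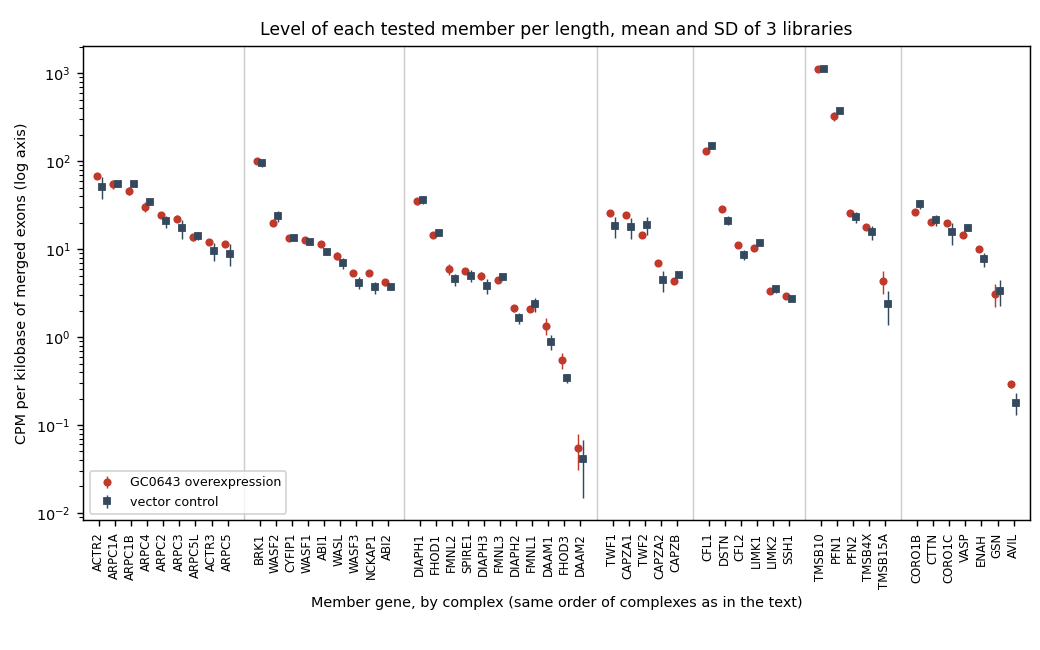
CPM per kilobase of merged exons on a log axis for the 52 tested genes, grouped by complex and ordered by level, with circles for GC0643 overexpression and squares for vector control (mean and SD of 3 libraries). Levels ran from 1110 for TMSB10 to 0.055 for DAAM2 with GC0643 overexpression, and from 1120 for TMSB10 to 0.0412 for DAAM2 with vector control.

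The tested members had, for the most part, higher counts with GC0643 overexpression than with vector control, by modest amounts. The log2 fold change, given as GC0643 overexpression over vector control, was positive for 32 members and negative for 20, and ran from −0.38 for TWF2 to 0.90 for TMSB15A. Its median was 0.18, and the median over all genes tested was 0.02. Of all genes tested, 10136 were positive and 9392 negative. No member passed an adjusted p of 0.05 in edgeR's quasi-likelihood test, and neither did any of the 19528 genes (0.0%). The adjusted p of the members lay between 0.26 and 0.99. At a nominal p, that is one not adjusted for the number of genes, of less than 0.05, 21 of the 52 members (40.4%) lay higher, against 13.1% of all genes tested, and 4 (7.69%) were lower, against 5.26%. With the study's thresholds, a fold change over 1.5 with that nominal p, 5 members were higher (9.62%, against 1.6% of all genes) and 0 were lower (against 0.871%). The libraries of the groups did not overlap for 13 members on the higher side (25%, against 11.8%) and for 6 on the lower side (11.5%, against 10.5%). Since the genes were listed with earlier results of these data known, these shares only describe the list. Bulk counts cannot tell more RNA per cell from more cells that carry the RNA. DESeq2's size factors gave 18 higher and 5 lower members, and over all genes they put 60.3% of the calls on the higher side, against 71.3%. Leaving out libraries moved these counts. The members higher at the nominal p numbered 9 without GC0643 overexpression replicate 1, 10 without its replicate 3, 8 without vector control replicate 1, 13 without its replicate 3 and 26 without its replicate 2. The members lower numbered 0, 0, 1, 1 and 7 in the same order. Without GC0643 overexpression replicate 2 there were 15 higher and 3 lower.

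Higher and lower members differed in the base composition of their transcripts. The 29 members whose canonical transcript had a GC content at or under the median of all genes, 49.4%, all had a positive log2 fold change with a median of 0.37, and 20 of them (69%) were higher at a nominal p below 0.05. Of all genes in that range 82.3% were positive, with a median of 0.26, and 25.3% were higher. Of the 23 members above it, 3 were positive and 20 negative with a median of −0.10, 1 was higher (4.35%) and 4 were lower (17.4%). Of all genes above it 78.5% were negative, with a median of −0.17, and 0.907% were higher and 10.0% lower. Across the 52 members, the Spearman correlation between the fold change and transcript GC was −0.77, and across all genes it was −0.67 (genes share the same 6 libraries and are not independent replicates). The GC content of the coding sequence, of the third codon position and of the 3′ UTR gave −0.72, −0.69 and −0.72, and transcript length 0.30. The deviations of the 6 libraries by GC, given above, moved with this result. After a loess correction of each library for transcript GC, 32 members were positive and 20 negative with a median of 0.04 and a Spearman correlation of −0.37. Of all genes, 9749 were positive and 9779 negative after it. Then 6 members (11.5%) were higher at a nominal p below 0.05, against 2.87% of all genes, and 0 were lower, against 3.24%. The 6 were CAPZA2, NCKAP1, FHOD3, WASF3, TMSB15A and AVIL. Without vector control replicate 2, 18 members were higher at an adjusted p under 0.05 in edgeR's test (34.0% of 53, against 14.7% of all genes) and 2, TWF2 and CORO1B, were lower (3.77%, against 4.36%), and with the GC correction added this count was 0. That library was the vector control closest to the GC0643 libraries by GC, so the fit without it is no independent support. With any other single library left out, 0 members passed an adjusted p of 0.05.

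**Figure D2:**
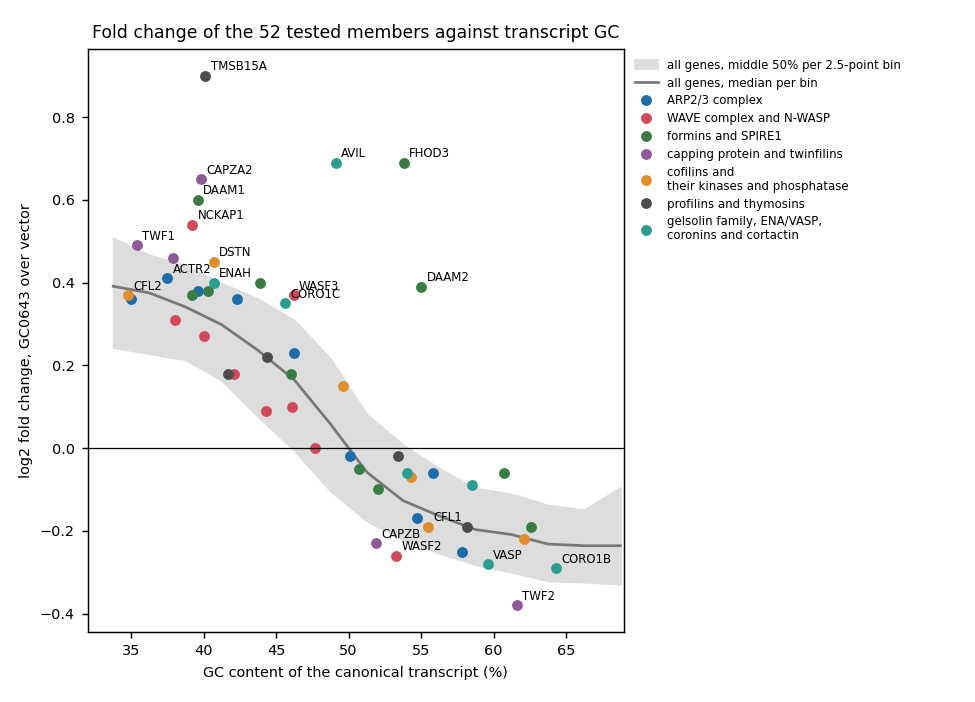
Log2 fold change (GC0643 overexpression over vector control) of the 52 tested genes against the GC content of the canonical transcript in percent, coloured by complex, with the median (line) and middle 50% (band) of all genes in GC bins 2.5 points wide. All 29 genes at or under 49.4% GC lie on or above 0, and TMSB15A, FHOD3, AVIL, CAPZA2 and DAAM1 are the 5 highest points.

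The ARP2/3 complex, which nucleates branched filaments, split by subunit. Of its 9 subunit genes 5 had positive and 4 negative log2 fold changes with a median of 0.23, and 4 were higher and 1 lower at a nominal p below 0.05. The higher genes were ACTR2, ACTR3, ARPC5 and ARPC3, and the lower gene was ARPC1B. ACTR2, which encodes the actin-related protein ARP2 (chromosome 2, 65227788 to 65271253 of GRCh38), stood at 285, 248 and 295 CPM in GC0643 overexpression replicates 1 to 3, against 192, 272 and 160 CPM in vector control replicates 1 to 3. Its log2 fold change was 0.41 (SE 0.16). The groups overlapped because vector control replicate 2 lay among the GC0643 libraries. ACTR3, which encodes the partner protein ARP3 (chromosome 2, 113890063 to 113962596), had 145, 141 and 153 CPM with GC0643 overexpression and 107, 142 and 92.0 CPM with vector control. It had a log2 fold change of 0.36 (SE 0.15), and replicate 2 of the vector control was again within the range of the GC0643 libraries. ARPC5, a core subunit (chromosome 1, 183620846 to 183635783), had 117, 128 and 125 CPM with GC0643 overexpression and 90.5, 124 and 70.4 CPM with vector control, with a log2 fold change of 0.38 (SE 0.17). ARPC3 (chromosome 12, 110434823 to 110450422), another core subunit, had 61.4, 73.9 and 66.8 CPM with GC0643 overexpression and 47.0, 67.2 and 43.8 CPM with vector control and a log2 fold change of 0.36 (SE 0.16). In all 4 genes vector control replicates 1 and 3 were the lowest libraries. ARPC1B, 1 of the alternative ARPC1 subunits, had 229, 280 and 266 CPM with GC0643 overexpression and 304, 293 and 327 CPM with vector control, and every GC0643 library lay below every vector control library, at a log2 fold change of −0.25 (SE 0.12). ARPC2, ARPC1A, ARPC4 and ARPC5L had 0.23, −0.02, −0.17 and −0.06. With transcript GC corrected, the complex had a median of 0.06 and none of its 9 genes passed a nominal p of 0.05, with ACTR2 at 0.10, ACTR3 at 0.02 and ARPC1B at −0.09. Without vector control replicate 2, ACTR2, ACTR3, ARPC5 and ARPC3 had 0.65, 0.56, 0.62 and 0.57 (adjusted p 0.01 to 0.012 in edgeR). These larger values are no independent support, since that library was the vector control closest to the GC0643 libraries. With any other single library left out, 0 members passed an adjusted p of 0.05. The median of the complex was 0.34 without that library and 0.11 without vector control replicate 3. ARPC1A and ARPC1B share exon bases with a readthrough gene on the same strand that itself averaged 8050 counts per library, against 2420 and 6050 for the subunits, so their counts are uncertain. The same holds for ARPC4, with a readthrough gene at 1350 counts against 1800. ARPC3 shares 97 exon bases with a lncRNA on its own strand that averaged 838 counts, against 1270 for ARPC3.

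The WAVE complex, which activates ARP2/3 at the cell front, and N-WASP had 8 positive and 1 negative log2 fold change among 9 tested genes, with a median of 0.18. At a nominal p below 0.05, 3 were higher and 0 lower. NCKAP1, a scaffold subunit of the complex (chromosome 2, 182909115 to 183038858), stood at 123, 117 and 122 CPM in GC0643 overexpression replicates 1 to 3, against 74.1, 98.7 and 76.6 CPM in vector control replicates 1 to 3. Its log2 fold change was 0.54 (SE 0.13), it had the smallest p of the 52 members (0.00099, nominal), and its groups did not overlap. WASF3, which encodes the activating protein WAVE3 (chromosome 13, 26557683 to 26688948), had 30, 26.1 and 27.5 CPM with GC0643 overexpression and 22.1, 24.6 and 18.2 CPM with vector control, again without overlap and with a log2 fold change of 0.37 (SE 0.15). ABI1, the adaptor of the complex (chromosome 10, 26746593 to 26861087), had 52.3, 47.9 and 45.7 CPM with GC0643 overexpression and 36.4, 41.6 and 39.5 CPM with vector control and a log2 fold change of 0.31 (SE 0.13). All 3 GC0643 libraries were above all vector control libraries in these 3 genes. WASF2, which encodes WAVE2, the widely expressed relative of WAVE3, had 117, 115 and 108 CPM with GC0643 overexpression and 130, 118 and 158 CPM with vector control. Its groups did not overlap in the other direction, at −0.26 (SE 0.13), with a nominal p of 0.064. BRK1 had 113, 124 and 112 CPM with GC0643 overexpression and 109, 118 and 99.2 CPM with vector control, with overlap and a log2 fold change of 0.10. WASL, which encodes N-WASP, had 0.27, ABI2 0.18, WASF1 0.09 and CYFIP1, the subunit that binds Rac, 0.00. Once corrected for GC, the median was −0.05 and 2 of 9 genes were positive, NCKAP1 at 0.24 (nominal p 0.014) and WASF3 at 0.23 (nominal p 0.048). The other 7 were negative there, with ABI1 at −0.01, BRK1 at −0.05, WASL at −0.02, ABI2 at −0.07 and WASF1 at −0.11. Without GC0643 overexpression replicate 1 the median was 0.12. WASF3 shares exon bases with a lncRNA on the opposite strand that averaged 260 counts, against 524 for WASF3.

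Formins, which nucleate and elongate unbranched filaments, and SPIRE1, a nucleator that works with formins, had 7 positive and 4 negative log2 fold changes, with a median of 0.37. At a nominal p below 0.05, 5 were higher and 0 lower. FHOD3, a formin best known from heart muscle (chromosome 18, 36297713 to 36780220), had low counts of 5.23, 3.49 and 4.63 CPM with GC0643 overexpression and 3.10, 2.62 and 2.58 CPM with vector control. The groups did not overlap, and its log2 fold change was 0.69 (SE 0.23). DAAM1, a formin of Wnt planar polarity signalling (chromosome 14, 59188646 to 59371405), had 17.6, 11.0 and 14.6 CPM with GC0643 overexpression and 8.32, 11.7 and 8.57 CPM with vector control, with a log2 fold change of 0.60 (SE 0.20). GC0643 replicate 2 and vector control replicate 2 lay side by side in DAAM1, between the other libraries. FMNL2, a formin of lamellipodia (chromosome 2, 152335174 to 152649826), had 43.5, 33.0 and 41.4 CPM with GC0643 overexpression and 28.0, 35.1 and 26.3 CPM with vector control, with 0.40 (SE 0.15). DIAPH3, a diaphanous formin (chromosome 13, 59665583 to 60163928), had 40.9, 32.4 and 37.2 CPM with GC0643 overexpression and 25.2, 34.6 and 25.4 CPM with vector control, with 0.38 (SE 0.16). In FMNL2 and DIAPH3 vector control replicate 2 exceeded GC0643 replicate 2. DIAPH1, the formin with the highest level, had 233, 275 and 274 CPM with GC0643 overexpression and 293, 281 and 235 CPM with vector control, and its groups overlapped at a log2 fold change of −0.05 (SE 0.12). DIAPH2 was the other formin higher at a nominal p below 0.05, with 0.37. SPIRE1, DAAM2, FHOD1, FMNL1 and FMNL3 had 0.18, 0.39, −0.06, −0.19 and −0.10. After the GC correction the median was 0.10, and FHOD3 had 0.78 (nominal p 0.0034), DAAM1 0.30 and DIAPH3 0.10. Without GC0643 overexpression replicate 1 the median was 0.15. FHOD3 averaged 76.5 counts and shares exon bases with TPGS2 on the opposite strand, which averaged 2030.

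Capping protein, a dimer of an alpha and the beta subunit that stops growth at the barbed end, and the twinfilins, which bind monomers and capping protein, differed in sign. Of 5 genes 3 were higher and 1 lower at a nominal p below 0.05, and the median log2 fold change was 0.46. CAPZA2, an alpha subunit (chromosome 7, 116811070 to 116922049), stood at 56.4, 59.9 and 56.9 CPM in GC0643 overexpression replicates 1 to 3, against 31.8, 48.1 and 30.8 CPM in vector control replicates 1 to 3. The groups did not overlap, and its log2 fold change was 0.65 (SE 0.16). CAPZA1, the other alpha subunit (chromosome 1, 112619805 to 112671616), had 82.4, 82.6 and 93 CPM with GC0643 overexpression and 62.0, 79.9 and 45.6 CPM with vector control, also without overlap, with 0.46 (SE 0.17). CAPZB, the beta subunit, had a log2 fold change of −0.23, and its 76.6 to 89.0 CPM with GC0643 overexpression lay below the 91.6 to 98.7 CPM with vector control. The genes of the alpha subunits were thus positive and that of the beta subunit negative. TWF1 (chromosome 12, 43793723 to 43806328) had 94.3, 101 and 105 CPM with GC0643 overexpression and 65.5, 92.0 and 55.4 CPM with vector control, without overlap and with 0.49 (SE 0.16). TWF2 (chromosome 3, 52228612 to 52246788), its paralogue, had 63.4, 61.4 and 58.0 CPM with GC0643 overexpression and 74.4, 63.2 and 99.7 CPM with vector control, with −0.38 (SE 0.15). Vector control replicate 2 lay within the GC0643 range in TWF2 and just under it in TWF1. In the GC-corrected fit the 5 genes had a median of 0.16, CAPZA2 had 0.37 (nominal p 0.0064), CAPZA1 0.16, TWF1 0.16, TWF2 −0.16 and CAPZB −0.18. Without vector control replicate 2, CAPZA2 had 0.89 (adjusted p 0.01 in edgeR) and TWF2 −0.51 (adjusted p 0.02 in edgeR). As for ARP2/3, leaving out the vector control closest to the GC0643 libraries gives no independent support. The median was 0.27 without vector control replicate 3. TWF2 shares exon bases with a gene on its own strand that averaged 753 counts, against 1510 for TWF2.

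Cofilins sever aged filaments, LIM kinases switch them off by phosphorylation, and the slingshot phosphatase SSH1 switches them on. Among these 6 genes 3 log2 fold changes were positive and 3 negative, with a median of 0.04, and 2 were higher at a nominal p below 0.05. DSTN, which encodes destrin (chromosome 20, 17570075 to 17609919), stood at 102, 107 and 106 CPM in GC0643 overexpression replicates 1 to 3, against 77.2, 86.2 and 67.6 CPM in vector control replicates 1 to 3. Its log2 fold change was 0.45 (SE 0.13). CFL2, the cofilin of muscle (chromosome 14, 34709113 to 34714823), had 54.8, 55.6 and 55.6 CPM with GC0643 overexpression and 39.7, 49.4 and 39.5 CPM with vector control, with 0.37 (SE 0.13). In DSTN and CFL2 the lowest GC0643 library exceeded the highest vector control library. CFL1 (chromosome 11, 65823022 to 65862026) had 701, 822 and 769 CPM with GC0643 overexpression and 883, 814 and 920 CPM with vector control, and with vector control replicate 2 below GC0643 replicate 2 its log2 fold change was −0.19 (SE 0.11). LIMK1 (chromosome 7, 74082933 to 74122525) had 68.3, 75.3 and 71.5 CPM with GC0643 overexpression and 91.7, 80.9 and 78.5 CPM with vector control, lower without overlap, at −0.22 (SE 0.12) with a nominal p of 0.088. LIMK2 had −0.07 and SSH1, without overlap on the higher side, 0.15. With the GC correction, DSTN had 0.18, CFL2 0.01, CFL1 −0.07 and LIMK1 −0.03, and none of the 6 passed a nominal p of 0.05. Pseudogenes named after DSTN held 8.10% of the summed counts, and with them added its log2 ratio was 0.42.

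Profilins and thymosins, which hold the pool of actin monomers, had 3 positive and 2 negative log2 fold changes with a median of 0.18, and 1 of 5 was higher at a nominal p below 0.05. TMSB15A, a thymosin of low level here (chromosome X, 102513682 to 102516739), had 3.64, 2.12 and 2.51 CPM with GC0643 overexpression and 1.28, 2.18 and 0.998 CPM with vector control, with a log2 fold change of 0.90 (SE 0.32), the largest of the members. Vector control replicate 2 lay above GC0643 replicate 2. Its near-identical copy TMSB15B had −0.36, and the summed CPM of the copies were 4.99, 3.73 and 3.75 with GC0643 overexpression and 2.66, 4.76 and 2.45 with vector control, a log2 ratio of means of 0.34. PFN1 (chromosome 17, 4945652 to 4949061) had 462, 583 and 529 CPM with GC0643 overexpression and 647, 574 and 570 CPM with vector control, and PFN2, a relative best known from neurons (chromosome 3, 149964904 to 150050788), had 93.6, 92.9 and 95.5 CPM with GC0643 overexpression and 83.8, 94.2 and 70.9 CPM with vector control. Both overlapped between the groups, at −0.19 (SE 0.12) and 0.18 (SE 0.13). TMSB4X, a major monomer binder in many cells (chromosome X, 12975110 to 12977227), had 29.8, 31.1 and 31.0 CPM with GC0643 overexpression and 25.3, 31.5 and 22.4 CPM with vector control, with 0.22 (SE 0.15). TMSB10 (chromosome 2, 84905656 to 84906671) had 498, 537 and 499 CPM with GC0643 overexpression and 550, 496 and 506 CPM with vector control, with −0.02 (SE 0.11). These thymosins did not separate the groups. Pseudogenes named after TMSB4X held 20.9% of the counts summed with it, and the sum had a log2 ratio of 0.32, so the level of TMSB4X is uncertain. After the GC correction the median was 0.03, TMSB15A had 0.62 (nominal p 0.048), and PFN2 and TMSB10 changed sign to −0.07 and 0.06. Leaving out vector control replicate 2 put the median at 0.28, and leaving out its replicate 3 put it at 0.07.

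In the gelsolin, ENA/VASP, coronin and cortactin groups 3 of 7 tested genes were positive and 4 negative, with a median of −0.06. At a nominal p below 0.05, 3 were higher, ENAH, CORO1C and AVIL, and 2 lower, CORO1B and VASP. ENAH, which encodes the filament elongation factor Mena (chromosome 1, 225486765 to 225653142), stood at 164, 142 and 154 CPM in GC0643 overexpression replicates 1 to 3, against 103, 142 and 104 CPM in vector control replicates 1 to 3, a log2 fold change of 0.40 (SE 0.14). VASP, its paralogue (chromosome 19, 45506579 to 45526989), had 50.7, 54.5 and 48.4 CPM with GC0643 overexpression and 60.7, 58.1 and 68.1 CPM with vector control, with −0.28 (SE 0.13). Neither gene overlapped between the groups, though in ENAH the replicates 2 of both groups round to the same value, and the directions were opposite. CORO1B, a coronin that acts on ARP2/3 branches (chromosome 11, 67435510 to 67443821), had 134, 149 and 140 CPM with GC0643 overexpression and 177, 150 and 191 CPM with vector control, with −0.29 (SE 0.12) and no overlap. AVIL, which encodes advillin, a severing protein of the gelsolin family (chromosome 12, 57797376 to 57818734), had 1.91, 1.65 and 1.63 CPM with GC0643 overexpression and 0.739, 1.16 and 1.29 CPM with vector control, with 0.69 (SE 0.31). It averaged 29.8 counts and shares exon bases with TSFM on the opposite strand, which averaged 558. CORO1C, a paralogue of CORO1B, had 0.35 with vector control replicate 2 inside the GC0643 range, and GSN, which encodes gelsolin, and CTTN, which encodes cortactin, had −0.09 and −0.06. After the GC correction the median was 0.09, and ENAH had 0.13, VASP −0.10, CORO1B −0.08 and AVIL 0.65 (nominal p rounding to 0.05). With a library left out, the median of the genes then tested was 0.16 without GC0643 overexpression replicate 1, 0.20 without its replicate 3, 0.11 without vector control replicate 1 and 0.16 without its replicate 3, and was −0.01 and −0.02 without replicate 2 of either group. Each of these fits filtered the genes anew, so EVL could enter, and the medians are not all of the same 7 genes. CTTN, the middle gene of the 7, ran from −0.17 to 0.01 in these fits.

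**Figure D3:**
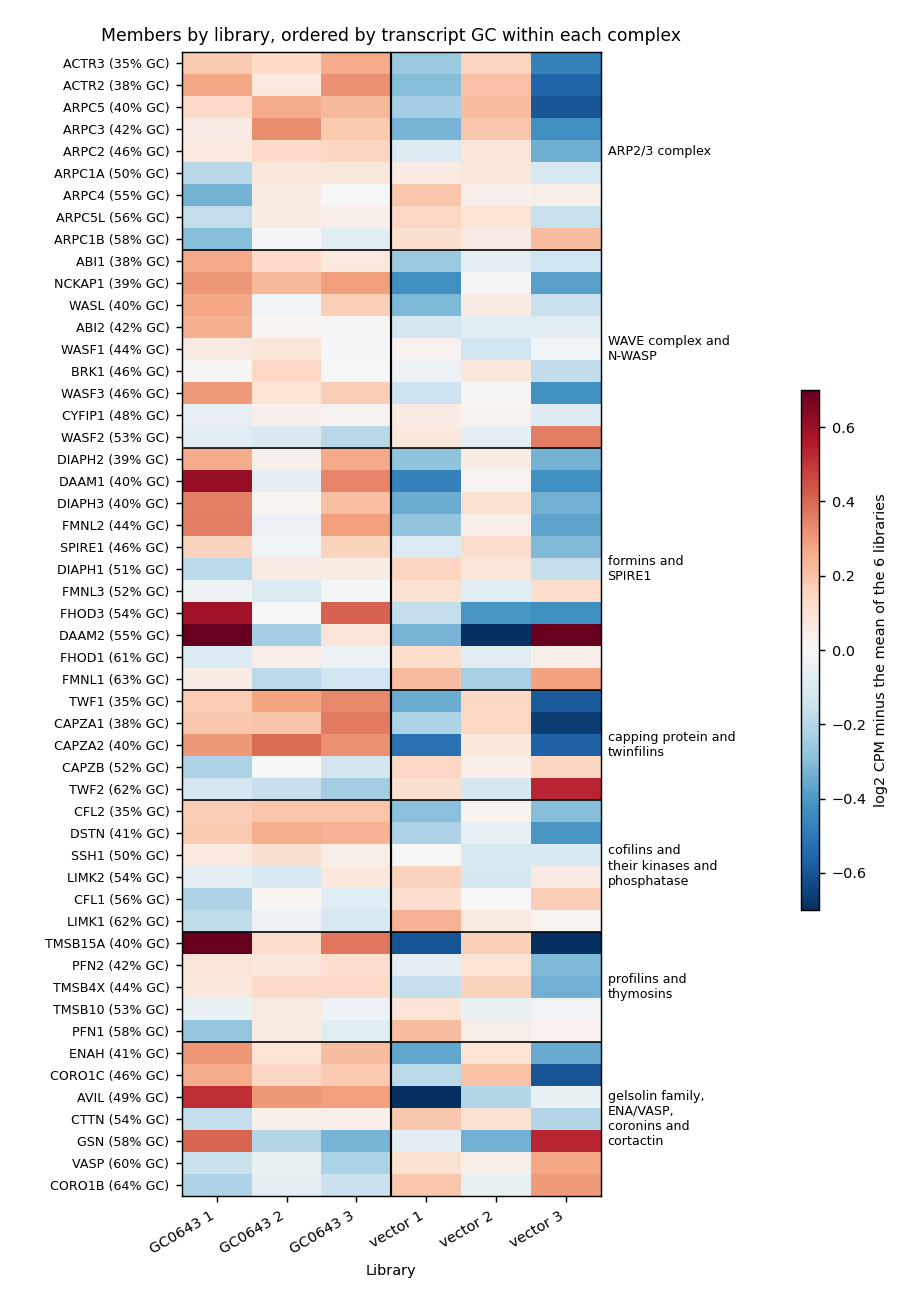
Log2 CPM minus the mean of the 6 libraries for the 52 tested genes (rows, by complex and from low to high transcript GC) in each library (columns, GC0643 overexpression left and vector control right), with colours ending at 0.7 and −0.7. Within each complex most upper rows are red in the GC0643 libraries and blue in vector control replicates 1 and 3, and vector control replicate 2 is closer in colour to the GC0643 libraries. The upper formin rows are near 0 in GC0643 replicate 2, where the median of all formin rows was −0.03.

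**Figure D4:**
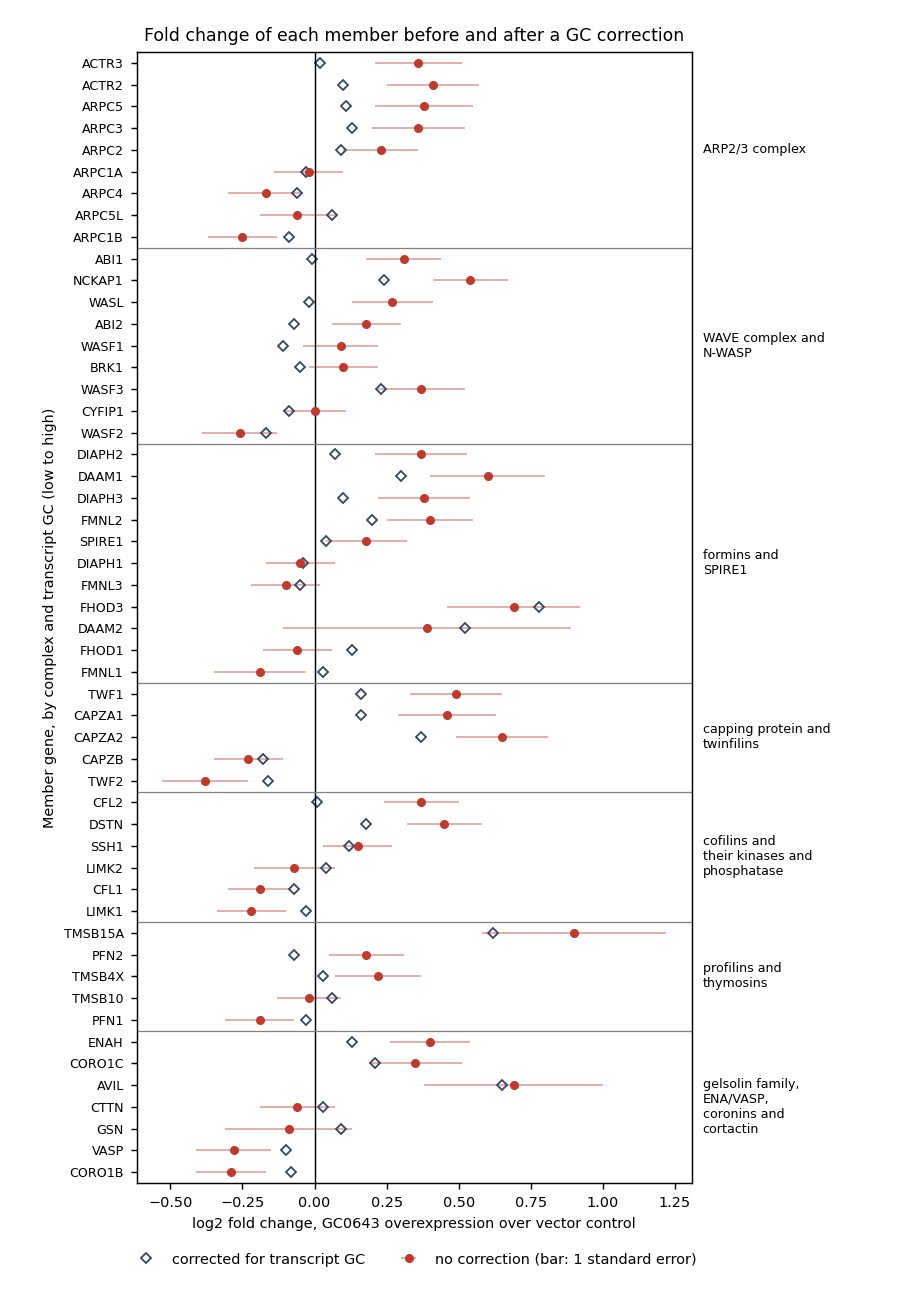
Log2 fold change of the 52 tested genes by complex, before (filled circles, bar of 1 standard error) and after (open diamonds) the correction for transcript GC. The median was 0.18 before and 0.04 after, and FHOD3, TMSB15A, AVIL, DAAM2 and CAPZA2 kept values of 0.37 or more.

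Several members are paralogues with related tasks, which allowed the balance between them to be measured inside each library as the log2 ratio of their CPM, free of the scaling between libraries. Of 16 pairs listed, 15 had a ratio, and in 14 of the 15 the paralogue with the lower transcript GC had a larger share with GC0643 overexpression than with vector control. The exception was CAPZA1 and CAPZA2, whose transcripts differ by 1.9 points of GC. The groups did not overlap in 8 pairs, each with an exact two-sided permutation p of 0.10, the smallest that 3 against 3 libraries allow, and 0.188 after Benjamini-Hochberg adjustment over the 15 pairs. CFL1 enters both the pair with CFL2 and the pair with DSTN. The fold changes of all genes tested also followed transcript GC (Spearman correlation −0.67), and no share was computed for other gene pairs. These counts are therefore not a result particular to actin paralogues. The log2 ratio of TWF1 to TWF2 was 0.57, 0.72 and 0.85 in GC0643 overexpression replicates 1 to 3, against −0.18, 0.54 and −0.85 in vector control replicates 1 to 3. The groups had means of 0.71 ± 0.14 (SD, n = 3) and −0.16 ± 0.70 (SD, n = 3), and a difference of 0.88. Twinfilin counts were thus 59.8%, 62.2% and 64.3% TWF1 with GC0643 overexpression and 46.8%, 59.3% and 35.7% with vector control, with replicate 2 of the vector control just below the GC0643 libraries. The log2 ratio of ENAH to VASP was 1.69, 1.39 and 1.67 in GC0643 overexpression replicates 1 to 3, against 0.77, 1.29 and 0.62 in vector control replicates 1 to 3. The groups differed by 0.69 and did not overlap. The ratio of CORO1B to CORO1C was −0.01, 0.26 and 0.15 in GC0643 overexpression replicates 1 to 3, against 0.85, 0.21 and 1.37 in vector control replicates 1 to 3, a difference of −0.68 with overlap (exact permutation p = 0.20). The ratio of CFL1 to DSTN was 2.78, 2.94 and 2.86 in GC0643 overexpression replicates 1 to 3, against 3.52, 3.24 and 3.77 in vector control replicates 1 to 3, a difference of −0.65 without overlap. The remaining pairs differed by 0.13 to 0.57 in size. In the GC-corrected fit these 4 differences were 0.33, 0.23, −0.29 and −0.25. Leaving out vector control replicate 2 put the TWF1 to TWF2 difference at 1.23, and leaving out replicate 3 put it at 0.53. Leaving out vector control replicate 3 put the CORO1B to CORO1C difference at −0.40.

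**Figure D5:**
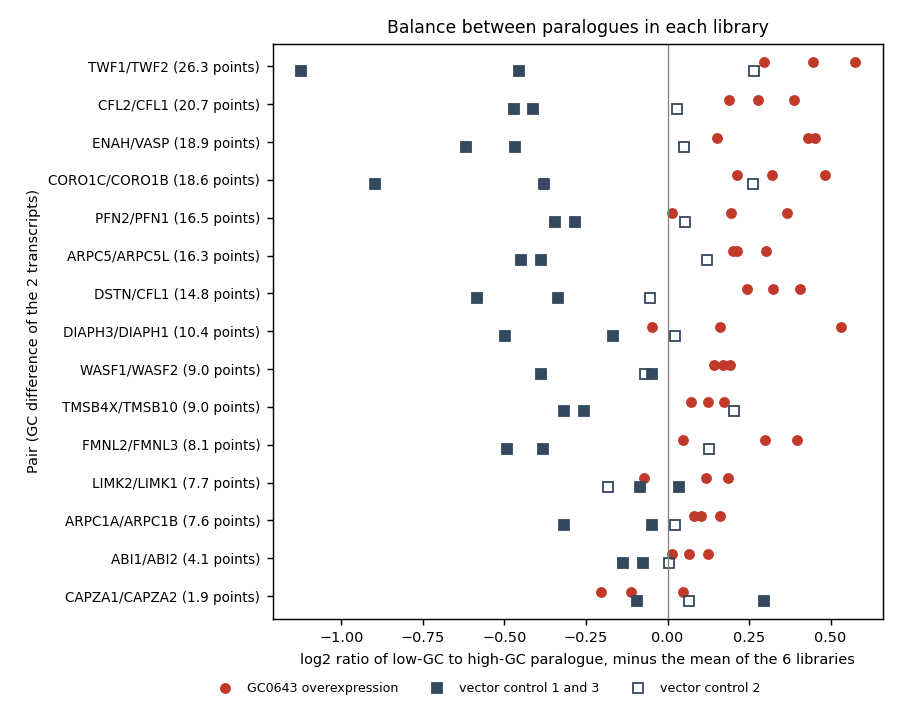
Log2 ratio of the low-GC to the high-GC paralogue in each library, minus the mean of the 6 libraries, for 15 pairs ordered by the GC difference of their transcripts, with circles for GC0643 overexpression, filled squares for vector control replicates 1 and 3 and open squares for vector control replicate 2. The circles lie right of the filled squares in the pairs with GC differences of 8.1 points or more, and the open squares lie closer to the circles than the filled squares do in these pairs except WASF1 and WASF2.

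The starts of the coding sequences of these paralogues are shown because they make the difference in composition visible. The first 60 coding bases of the canonical GENCODE transcripts are printed 5′ to 3′ from the start codon, with G or C at the third position of a codon in capitals. All 4 genes lie on the minus strand of GRCh38 at the positions given above.
CFL2: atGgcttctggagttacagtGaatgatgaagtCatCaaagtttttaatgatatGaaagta
CFL1: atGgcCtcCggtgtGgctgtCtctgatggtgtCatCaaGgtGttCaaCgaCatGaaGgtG
TWF1: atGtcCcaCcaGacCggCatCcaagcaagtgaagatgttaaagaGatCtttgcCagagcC
TWF2: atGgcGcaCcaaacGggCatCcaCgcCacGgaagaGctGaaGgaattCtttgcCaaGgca
Of the 20 codons shown, 5 end in G or C in CFL2 and 15 in CFL1, and 11 do so in TWF1 and 15 in TWF2. Over the whole coding sequence the share was 33.5% in CFL2 and 78.4% in CFL1, which both have 501 coding bases, and 33.0% in TWF1 and 79.4% in TWF2. CFL2 and TWF1, the GC-poor members, had log2 fold changes of 0.37 and 0.49, and CFL1 and TWF2 had −0.19 and −0.38. In this design the GC-related deviation of the libraries and an effect of GC0643 cannot be told apart.

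Other genes of actin dynamics had a median close to that of all genes. Of 92 listed by role, 79 were tested, 13 were higher at a nominal p below 0.05 (16.5%, against 13.1% of all genes) and 3 lower (3.80%, against 5.26%), with a median of 0.04. Their median transcript GC was 50.1%, against 46.2% for the members. The Spearman correlation of their fold change with transcript GC was −0.71, against −0.77 for the members. After the GC correction the medians were 0.02 for these genes and 0.04 for the members. ACTB, the main cytoplasmic actin, had 2660, 3430 and 3180 CPM with GC0643 overexpression and 3510, 3230 and 3120 CPM with vector control, and ACTG1, the other cytoplasmic actin, 788, 785 and 684 CPM with GC0643 overexpression and 748, 674 and 779 CPM with vector control. Their groups overlapped, at log2 fold changes of −0.09 (SE 0.11) and 0.04 (SE 0.11). ACTA2, smooth muscle actin, had −0.17. Among other nucleators and WASP relatives 1 of 17 was higher and 0 lower, WASHC4, a subunit of the WASH complex on endosomes, at 0.55, and WASHC2A had 0.33. Of 27 further genes of filament turnover 4 were higher and 2 lower, with GMFB, which debranches ARP2/3 networks, at 62.8, 70.5 and 72.9 CPM with GC0643 overexpression and 43.0, 57.1 and 37.3 CPM with vector control and a log2 fold change of 0.59, and TMOD3, which caps pointed ends, at 0.51. Among 14 tropomyosins and crosslinkers 4 were higher and 0 lower. TPM4, a tropomyosin that coats filaments, had 481, 477 and 460 CPM with GC0643 overexpression and 327, 426 and 234 CPM with vector control, without overlap and with a log2 fold change of 0.52 (SE 0.17), and PLS3, a filament bundler, had 0.45. When GC was corrected for, TPM4 had 0.42 (nominal p 0.015), GMFB 0.23 (nominal p 0.041), WASHC4 0.20 and PLS3 0.15. Without vector control replicate 2, the vector control closest to the GC0643 libraries, TPM4 had 0.75 (adjusted p 0.01 in edgeR). This is no independent support either.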

How the data were processed

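RNA of HGC-27 cells was sequenced with the NEBNext Ultra kit in 3 GC0643 overexpression and 3 vector control libraries. The deposited values are raw counts per Ensembl gene, which the authors made, per the submitters' processing notes, with Trimmomatic 0.32, HISAT2 2.1.0, GRCh38 and featureCounts 2.0.0. For its tumour RNA-seq, made with the same tools, the study counted exon reads with the option that gives a read to every gene it overlaps and named no strand option. For the cell line libraries these options are not given in the sources used here, and 32 members share exon bases with another gene, 9 of them on the same strand and 29 on the opposite strand. GENCODE 44 was matched for 58472 of 58825 genes and gave positions, lengths and GC content. Total counts of 20376722 to 24069166 set the precision.

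Genes were filtered with edgeR's filterByExpr, scaled by TMM and tested by quasi-likelihood in edgeR 4.0.16 (R 4.3.3) with the group as the single term. Benjamini-Hochberg adjustment covered 19528 genes. The biological coefficient of variation was 14.84%. CPM use TMM-scaled totals. Paralogue ratios were tested with exact two-sided permutation tests (scipy 1.17.1). Code was tested on simulated data. The members and lists were chosen with earlier results of these data known. Named genes are the up to 4 tested members with the smallest p and the member with the highest level in each complex, ACTB and ACTG1, the 2 genes with the smallest p in each further list, and the 4 pairs with the largest difference. The other members are given by fold change or range. The values of ARPC1B by library, and other genes outside this rule, were chosen after they were seen. The result of 1 further list is not reported here.

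Alternatives were unfiltered genes, a filter of CPM over 1 in at least 3 libraries, edgeR's likelihood ratio test, DESeq2 1.42.0 and its size factors in edgeR, unscaled library totals, correction of each library for transcript length or GC by loess (span 0.3, prior count 1), the replicate number as a block, alone or joined with the correction for GC, raw counts with a prior count of 1 for ratios, canonical transcript lengths for levels, and leaving out each library. Leaving out each library with the GC correction was added after seeing the data.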

Additional observations from a re-analysis of the deposited data

How the results depend on the processing

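Library size alone and CPM over 1 in at least 3 libraries changed no count of members by over 1.5 times. All genes past an adjusted p of 0.05 numbered 0 in the quasi-likelihood test (with 2553 higher at an unadjusted p under 0.05, and 1028 lower), 16 in edgeR's likelihood ratio test, 1 with DESeq2, 1 with DESeq2's size factors and 224 without a filter, where 2 members passed, 2 were lower at an unadjusted p under 0.05 and the gelsolin, ENA/VASP, coronin and cortactin median, there with EVL included, was 0.15. Replicate numbers did not pair the libraries (correlations of −0.21, −0.028 and −0.31). No library correlated best with the library of its own number in the other group. The replicate block gave 24 genes at an adjusted p under 0.05 and 0 members, 314 genes and 0 members lower at an unadjusted p under 0.05, and 16 members higher. The GC correction gave 561 genes higher and 633 lower, 6 members higher and 0 lower, and medians of 0.04 for all members, 0.06 for ARP2/3, −0.05 for WAVE and N-WASP, 0.10 for the formins, 0.16 for capping protein and twinfilins, 0.03 for profilins and thymosins and 0.09 for the gelsolin, ENA/VASP, coronin and cortactin groups. It turned the sign of 14 of the 52 log2 fold changes, among them, of the members given by library, ABI1 (−0.01), BRK1 (−0.05), PFN2 (−0.07) and TMSB10 (0.06). The replicate block with GC correction gave 2 genes at an adjusted p under 0.05, 395 genes higher and 391 lower, 2 members higher and 0 lower, medians of 0.04, −0.05, 0.10, 0.17 and 0.08 for all members, WAVE and N-WASP, formins, capping protein and twinfilins, and the gelsolin, ENA/VASP, coronin and cortactin groups, and −0.01, −0.05, −0.07 and 0.07 for ABI1, BRK1, PFN2 and TMSB10. The length correction gave 1572 genes higher and 1688 lower, 9 members higher and 5 lower, and medians of 0.21 for the formins and −0.09 for the cofilins and their kinases and phosphatase. Per kilobase of canonical transcript, DIAPH1, TWF1, CFL1 and CORO1B had levels of 45.5, 33.5, 614 and 31.9 with GC0643 overexpression. The causes of these differences were not tested.

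Leaving out 1 library, without and with the GC correction, gave 0 to 3813 and 0 to 5 genes and 0 to 20 and 0 members at an adjusted p under 0.05. The highest counts without the correction came without vector control replicate 2. Each of these fits filtered the genes anew, and 53 members were tested without vector control replicate 2, so the medians below can cover other genes than the main fit. At an unadjusted p under 0.05 it gave 827 to 4564 and 263 to 1364 genes higher, 367 to 2842 and 338 to 1062 lower, 8 to 26 and 2 to 7 members higher, and 0 to 7 and 0 to 1 lower. Members higher were 8 without vector control replicate 1, 9 without GC0643 overexpression replicate 1, 10 without its replicate 3 and 13 without vector control replicate 3. Medians without and with the correction were 0.12 to 0.21 and 0.01 to 0.09 for all members, 0.11 to 0.34 and −0.03 to 0.15 for ARP2/3, 0.12 to 0.23 and −0.07 to 0.00 for WAVE and N-WASP, 0.15 to 0.43 and 0.06 to 0.15 for the formins, 0.27 to 0.68 and 0.04 to 0.25 for capping protein and twinfilins, 0.07 to 0.28 and −0.02 to 0.08 for profilins and thymosins, −0.02 to 0.20 and 0.06 to 0.18 for the gelsolin, ENA/VASP, coronin and cortactin groups. Without the correction, leaving out 1 library turned the sign of 8 of the 52 members. Of the members given by library, those that changed sign in at least 1 fit were ACTR3 0.22 to 0.56 and −0.03 to 0.08, ARPC5 0.20 to 0.62 and −0.01 to 0.23, ABI1 0.26 to 0.36 and −0.07 to 0.07, BRK1 0.03 to 0.16 and −0.12 to 0.00, DIAPH1 −0.15 to 0.03 and −0.14 to 0.04, CFL2 0.30 to 0.48 and −0.04 to 0.05, LIMK1 −0.27 to −0.16 and −0.15 to 0.03, PFN1 −0.28 to −0.10 and −0.12 to 0.05, TMSB4X 0.10 to 0.36 and −0.02 to 0.11, PFN2 0.07 to 0.28 and −0.11 to −0.03, TMSB10 −0.07 to 0.02 and 0.02 to 0.10.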

Other observations

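Promoters were read from RefSeq (GRCh38.p14, 250 bases before to 50 after each start) and searched on both strands for the CArG box, the site of serum response factor that marks many genes of actins and muscle. The motif was found in 0 of 74 promoters of the members, in 12 of 127 promoters of the other actin genes (9.45%) and in 454 of 35116 promoters in all (1.29%). The median GC content of these windows was 69%, 66.7% and 58.7%. Promoters were counted per start, so RND3 entered the matches with overlapping windows that hold the same motif. ACTA1, ACTC1 and ACTG2, also among the matches, did not pass the filter on low counts. A match is only a match of letters, and nothing about the factor follows from its absence in this window.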
